A study of Canis lupus familiaris with 55 samples.

Results

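Gonads of 9 canine embryos from a pedigree that carries XX disorder of sex development (XX DSD) were compared between the sexes at d41 to d44 of gestation, 6 from XX embryos at risk and 3 from XY littermates. They were selected by the sample labels, which give DSD as the pedigree, XX or XY as the sex chromosomes and d41 to d44 as the age, and make up 9 of the 55 libraries of the series. In XX DSD, dogs with a female karyotype and no *SRY*, the testis determining gene of the Y chromosome, form testes or ovotestes. The series measured RNA by polyA+ RNA-seq of whole gonad pairs that had been dissected and frozen, 1 library per embryo apart from the pooled youngest controls. Embryos were taken by surgery from anesthetised dams, and treatment was not compared. Values are FPKM, which scale the reads of a gene to the length of its transcripts and to the mapped reads of its library.

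The XX embryos were C3694 and C3696 (d41), C3517 (d42), C3684 and C3688 (d43) and C3659 (d44). The XY littermates were C3691 (d41) and C3518 and C3522 (d42). C3694, C3696 and C3691 were of 1 litter (here A) and C3517, C3518 and C3522 of another (B), whereas C3684 and C3688 (litter C) and C3659 (litter D) had no XY littermate among these libraries. The mixed-breed pedigree descends from American cocker spaniel sires and beagle females, and per the study's list all 6 XX embryos and C3691 were homozygous for a guanine insertion in an intron of *BTBD17*, with C3518 and C3522 heterozygous. The insertion was therefore present in both sexes, but the heterozygotes were all XY and of litter B. None of these gonads was examined by histology, so an XX gonad here is at risk by pedigree and genotype and need not be one that would have formed testis. Labels put litter A at d41. The study's list of embryos gives it a lower age in the younger group, but its Methods state that external staging placed the litter after d39 and before d42 and that it was moved to the older group, after a principal component analysis of expression had set some younger samples beside older controls. With litter A left out 6 named genes lost their call between the sexes. Such losses are given below for some genes and not for each. Controls were embryos of beagle parents without the insertion, 3 XX and 3 XY of d44, and the younger embryos of the pedigree used for comparison were 13 of d37-39.

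The gonad starts as a bipotential ridge. In XY embryos *SRY* switches on *SOX9* in supporting cells, which become Sertoli cells, secrete anti-Müllerian hormone (*AMH*) and organise cords around the germ cells, and Leydig cells between the cords begin to make androgens. In XX embryos RSPO1 and WNT4 raise beta-catenin signalling, and FOXL2 marks the supporting cells that become granulosa cells.

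Sequencing depth did not separate the sexes. Relative depth, with the deepest library of the series from a single embryo at 1, had a median of 0.281 in XX DSD gonads (0.237 to 0.295) and 0.268 in XY littermates (0.253 to 0.291). The geometric means were 1.01-fold apart (p = 0.86, two-sided exact permutation test over 84 splits). Correlations of log2(FPKM + 1) were 0.96 to 0.971 among XX gonads, 0.949 to 0.966 among XY gonads and 0.892 to 0.923 between the sexes, and the first principal component, with 50.7% of the variance, placed the 6 XX gonads at -30.13 to -16.38 and the 3 XY gonads at 48.66 to 52.5. No locus of the assembly lies on a Y chromosome, so *SRY* was not measured. Each library is a separate embryo, but embryos of a litter share parents, and age, litter, insertion genotype and sex are not balanced.

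Of 12115 loci that hold 1 gene name and reached a mean of 1 FPKM in either sex, 2328 (19.2%) were higher in XX DSD gonads and 2803 (23.1%) higher in XY littermates at an adjusted p under 0.05 (limma). The median difference over all of them was -0.01 on the log2 scale. With means at least 2-fold apart and 4 FPKM in the higher group added (all criteria), the table had 361 genes higher in XX (2.98%) and 639 higher in XY (5.27%). In 38.9% of the genes tested the 6 XX and 3 XY libraries did not overlap. The annotated table, which lists identifiers without symbols, had 444 (3.2%) and 704 (5.07%) of 13878 genes by all criteria, 2879 (20.7%) and 2955 (21.3%) by adjusted p alone and 38.8% without overlap. These shares are the background for the counts that follow. The RNA is that of whole gonads, so fewer cells of a type and less RNA per cell cannot be told apart in any of them.

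*SOX9*, which encodes the transcription factor that makes Sertoli cells (CFA9:8275049-8280390, CanFam3), was low in every XX DSD gonad and high in every XY littermate. It stood at 3.27 FPKM in the lowest, 3.71 in the median and 4.28 in the highest XX gonad, against 76.7 in C3691, 64.9 in C3518 and 59.3 in C3522. The lowest XY gonad was above all XX gonads, and the 6 XX values lay close together. The group means were 3.69 ± 0.349 (SD, n = 6) and 67 ± 8.92 (SD, n = 3), an 18.1-fold difference (-3.85 on the log2 scale, SE 0.09, adjusted p = 1e-08).

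*AMH*, whose product makes the Müllerian ducts regress, was read from the annotated table. XX DSD gonads had 2.42 FPKM at the lowest, 3.33 at the median and 6.39 at the highest, and the XY gonads C3691, C3518 and C3522 had 2150, 1770 and 3110. The difference was 579-fold between group means of 4.05 ± 1.78 and 2340 ± 691 (-8.89, SE 0.29, adjusted p = 5e-08). C3694 and C3517, with 6.39 and 6.12 FPKM, had the highest *AMH* of the XX gonads and were still far below the lowest XY gonad.

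Of 24 genes listed as Sertoli cell genes, 22 have a locus of their own, 19 were tested, 15 of these were higher in XY littermates and 3 higher in XX DSD gonads (all genes tested: 23.1% and 19.2%), with a median difference of -2.23. Members that are off in XX gonads enter the test through the XY group, so the median describes those tested and not the list. *INHBB*, the beta-B subunit of inhibin and activin, was 1.98 ± 0.735 FPKM in XX and 127 ± 7.54 in XY gonads (-5.46, SE 0.17, adjusted p = 2.3e-08), and *INHA*, the alpha subunit of inhibin, 70.9 ± 20.6 and 329 ± 52.9 (-2.23, adjusted p = 3.8e-05). *CLDN11*, a tight junction protein of the Sertoli cell barrier, was 2.34 ± 1.79 and 122 ± 59.2 FPKM (-5.22, adjusted p = 9.4e-06). Both inhibin genes and *CLDN11* were separate between the sexes in every library.

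Transcription factors of the testis differed from each other. *DMRT1*, which keeps Sertoli cells in their fate, was 1.64 ± 0.518 FPKM in XX and 13.1 ± 2.06 in XY gonads (-2.44, adjusted p = 7.1e-06), and *SOX10*, a relative of *SOX9*, was at 0.151 or below in every XX gonad and 3.9 to 5.02 in XY gonads (-2.39, adjusted p = 7e-07). *SOX8* and *SOX3* did not reach 1 FPKM in either sex and were not tested (*SOX8* 0.144 and 0.0865 FPKM, *SOX3* 0.244 and 0.203). *FGF9*, the growth factor that sustains *SOX9* in the mouse, was 5.97 ± 0.285 in XX and 6.14 ± 0.444 in XY gonads and the values overlapped (-0.04, SE 0.07, adjusted p = 0.7). No difference in *FGF9* was thus detected in libraries in which *SOX9* differed 18.1-fold.

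*PTGDS*, the prostaglandin D synthase of Sertoli cells, was abundant in both sexes. XX gonads had 466 FPKM at the lowest, 477 at the median and 762 at the highest (C3694), and XY gonads had 1520 to 1680. The groups did not overlap and differed by -1.59 (SE 0.16, adjusted p = 3.7e-05), 2.97-fold between the means. *FSHR*, the receptor of follicle-stimulating hormone, had 28.6 ± 5.39 FPKM in XX and 110 ± 36.6 in XY gonads (-1.87, adjusted p = 0.00013).

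Further Sertoli list members that were near 0 in XX gonads were *FATE1* (0.207 against 16.3 FPKM, adjusted p = 3.2e-06), *MRO* (0.942 against 27.2, adjusted p = 2.1e-07) and *GDNF*, the growth factor of spermatogonial stem cells (0.967 against 7.14, adjusted p = 1.4e-06). *CITED1*, a transcriptional cofactor, was 1.95 ± 0.291 and 21.5 ± 6.32 (-2.9, adjusted p = 1.2e-06). The 3 members that went the other way were *TESC*, a calcium-binding protein gene (51 ± 4.45 in XX against 11.3 ± 2.01 in XY, 2.09, adjusted p = 6.5e-07), *PDGFA*, a platelet-derived growth factor (19.3 ± 1.83 against 8.55 ± 3.04, 1.13, adjusted p = 0.00044), and *VNN1*, a pantetheinase (68.8 ± 14.8 against 43 ± 5.14, 0.64, adjusted p = 0.021). *VNN1* overlapped between the sexes and its adjusted p was 0.18 among the embryos of d41 and d42 alone, 0.078 without C3518 and 0.054 without C3522, whereas *TESC* and *PDGFA* were separate.

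**Figure D1:**
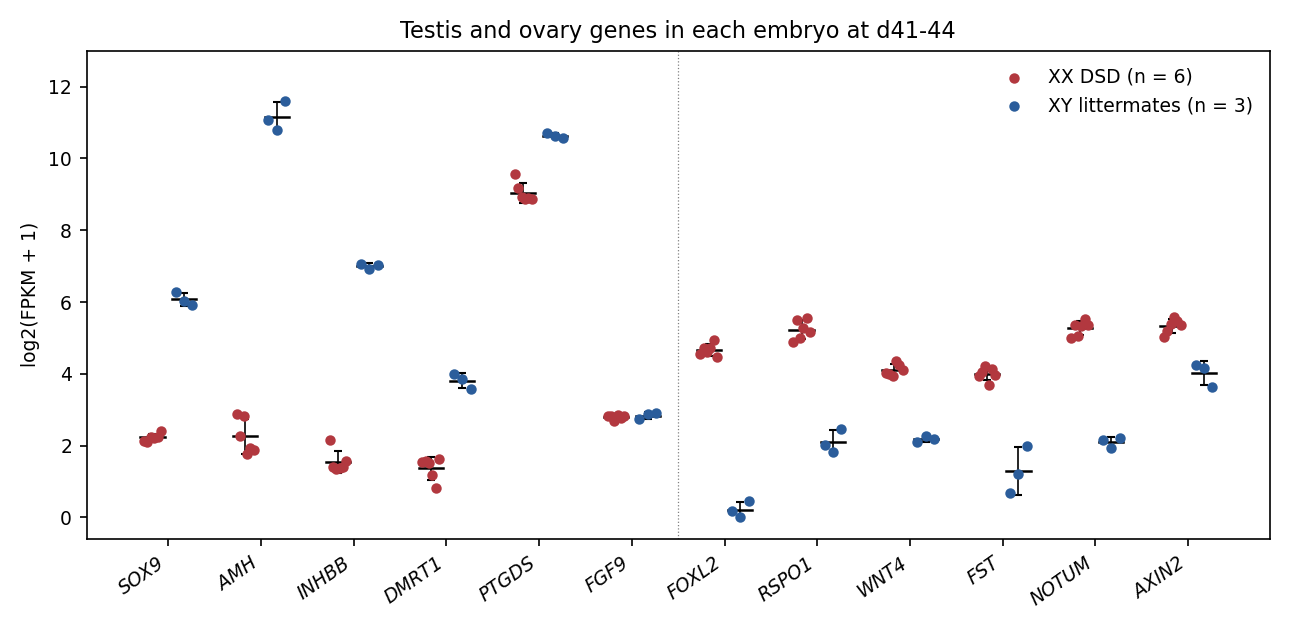
log2(FPKM + 1) (vertical axis) of 6 testis genes and 6 ovary or WNT genes (horizontal axis) in each embryo, with the group mean and SD as black lines. *SOX9* sits at 3.27 to 4.28 FPKM in the 6 XX DSD gonads and 59.3 to 76.7 in the 3 XY littermates, *FGF9* overlaps, and *FOXL2* is at 21.2 to 30 against at most 0.366 FPKM.

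*FOXL2*, the transcription factor of granulosa cells (CFA23:35145964-35147181), had the opposite pattern to *SOX9*. XX DSD gonads had 21.2 FPKM at the lowest, 24.4 at the median and 30 at the highest, and the XY gonads had 0.124, 0 and 0.366. Every XX gonad was far above every XY gonad, and no XX gonad was near the XY level. The difference was 4.47 on the log2 scale (SE 0.12, adjusted p = 1.7e-08) between means of 24.7 ± 3.14 and 0.163 ± 0.186.

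*RSPO1*, the secreted protein that amplifies WNT signals in the ovary (CFA15:4850434-4877125), had 28.7 FPKM at the lowest (C3694), 36.4 at the median and 46 at the highest (C3688) in XX DSD gonads. XY littermates had 3.02 in C3691, 2.54 in C3518 and 4.55 in C3522. The sexes were separate, by 11-fold between 37.1 ± 7.04 and 3.37 ± 1.05 (3.13, SE 0.18, adjusted p = 1.1e-06). *WNT4*, the ovarian WNT ligand (CFA2:77116779-77129764), was 14.2 to 19.4 FPKM in XX and 3.31 to 3.83 in XY gonads, with means of 16.3 ± 2.03 and 3.56 ± 0.263 (1.92, SE 0.1, adjusted p = 6.5e-07). *WNT6*, another ligand of the family, was 29 ± 3.63 and 5.18 ± 1.99 (2.32, adjusted p = 6.7e-06).

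Of 17 genes listed for pre-granulosa cells, 15 have their own locus and 13 were tested. Of these, 10 were higher in XX and 1 in XY (all genes tested: 19.2% and 23.1%), with a median of 1.28. Members off in XY gonads enter the test through the XX group, so count and median describe those tested and not the list. *FST*, which binds activin, was 15 ± 1.91 FPKM in XX gonads and 0.588, 1.31 and 3.01 in the XY gonads (2.7, SE 0.24, adjusted p = 1.9e-05). *IRX5*, a homeobox factor of the granulosa lineage, was 4.18 ± 1.35 and 0.052 ± 0.0503 (2.25, adjusted p = 5.4e-05), and was lowest in the 2 XX embryos of litter A (2.01 and 3.03, against 4.58 to 5.36 in the others). *BMP2* was 5.31 ± 0.756 and 1.59 ± 0.329 (1.28, adjusted p = 3.5e-05). *CYP19A1*, the aromatase that makes estrogen, was low but separate between the sexes at 1.31 to 2.38 FPKM in XX and 0.281 to 0.476 in XY gonads (1.18, adjusted p = 0.00016).

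The pre-granulosa list member that was higher in XY gonads was *KITLG*, the ligand of the receptor KIT, with 52.3 ± 7.63 in XX and 74.8 ± 10.7 in XY gonads (-0.51, adjusted p = 0.013, 0.051 among embryos of d41 and d42 alone and 0.05 without the XY embryo C3522). *ESR2*, an estrogen receptor, was 8.02 ± 1.76 and 6.67 ± 0.774 and overlapped (0.22, adjusted p = 0.31). *RUNX1*, a factor of the granulosa lineage in mice, was close to the detection filter in XX gonads (1.02 ± 0.409 against 0.341 ± 0.194, adjusted p = 0.033) and lost the call without XX embryo C3517 (adjusted p = 0.05), without the XY embryo C3518 (0.096) and without C3522 (0.087).

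WNT targets and feedback inhibitors were higher in XX DSD gonads in 7 of 11 tested members, of 15 listed (all genes tested: 19.2%), and 1 was higher in XY gonads, with a median of 0.95. Here too members off in XY gonads enter through the XX group, so count and median describe the 11 tested. *NOTUM*, a secreted enzyme that inactivates WNT proteins and is switched on by them, had 31 FPKM at the lowest, 39.7 at the median and 45 at the highest in XX gonads. XY gonads had 2.83 to 3.6, so that the sexes were separate by 11.6-fold (3.18, SE 0.12, adjusted p = 9e-08). *NKD1*, an inhibitor of Dishevelled, was 23 ± 2.24 and 3.16 ± 0.614 (2.53, adjusted p = 2e-07), and *SP5*, a zinc finger target of beta-catenin, 5.72 ± 1.67 and 0.105 ± 0.0608 (2.56, adjusted p = 1.6e-05).

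*AXIN2*, a scaffold of the complex that destroys beta-catenin and a general readout of the pathway, was 39.7 ± 5.38 in XX and 15.5 ± 3.47 in XY gonads (1.32, adjusted p = 0.00011). Its factors *LEF1* and *TCF7* were 40.3 against 20.4 and 13.3 against 4.67 FPKM (adjusted p = 2.5e-05 and 1.3e-05). *ZNRF3*, a ligase that removes WNT receptors, was 7.77 ± 0.532 and 4.71 ± 0.934 (0.63, adjusted p = 0.00089), while *RNF43*, its partner, was not tested at 0.402 and 0.251 FPKM. *TNFRSF19* was the 1 list member higher in XY gonads (6.28 against 9.49, adjusted p = 0.009, and 0.074 with 1 mean value per litter and sex).

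Receptors and beta-catenin itself showed little or the reverse. *CTNNB1*, which encodes beta-catenin, was 280 ± 22.6 in XX and 338 ± 49.3 in XY gonads (-0.26, adjusted p = 0.067), with overlap, and passed at 0.0062 without the XY embryo C3522 and at 0.045 without the XX embryo C3694. The co-receptor *LRP6* and the RSPO1 receptor *LGR4* overlapped between the sexes (26.2 against 25.2 and 29.2 against 27.1 FPKM, adjusted p = 0.52 and 0.42). *LRP5* was higher in XY gonads (10.9 ± 1.72 against 18.4 ± 1.41, -0.71, adjusted p = 0.0012). The secreted antagonist *SFRP2* was also higher there, at 26.4 to 52.9 FPKM in XX and 65.4 to 167 in XY gonads (-1.53, SE 0.29, adjusted p = 0.0023).

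Among genes of the bipotential gonad 4 of 12 tested were higher in XX DSD gonads and 3 higher in XY littermates (all genes tested: 19.2% and 23.1%). The XY count was thus near the share of all genes. Another 5 passed on neither side, and the median was 0.13. *EMX2*, a homeobox gene without which gonads do not form, was 87.8 ± 5.4 in XX and 33 ± 3.4 in XY gonads (1.39, SE 0.08, adjusted p = 1.1e-06), and *WT1*, which acts upstream of *SRY* and *NR5A1*, 65.1 ± 3.52 and 26.4 ± 4.47 (1.28, adjusted p = 8e-06). *SIX4* and *CBX2* were higher in XX gonads as well (3.75 against 1.04, and 7.05 against 4.23). *GATA4* and its cofactor *ZFPM2* were higher in XY gonads by 1.26-fold and 1.36-fold (adjusted p = 0.0011 and 0.00063). *NR5A1*, the nuclear receptor of gonad and steroid cells, was 37.7 ± 5.13 and 56.3 ± 7 in the annotated table (-0.57, adjusted p = 0.0044). *LHX9*, 41.4 ± 2.96 and 37.1 ± 5.44, overlapped (adjusted p = 0.2), as did *GADD45G*, an activator of *SRY* in mice, at 1.42 and 0.953 FPKM (adjusted p = 0.11).

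The E-protein genes *TCF12* and *TCF3* were higher in XX gonads (83.3 against 49.5, adjusted p = 0.00013, and 19.7 against 13.3, adjusted p = 0.0075), *TCF3* with overlap and with an adjusted p of 0.091 in embryos of d41 and d42 and 0.089 with litter A left out.

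Steroidogenic genes were spread widely among the XX embryos. Of 16 genes listed for Leydig cells and steroid synthesis, 10 have a locus of their own and were tested. Of these, 9 were higher in XY littermates and 1, *CYP19A1*, was higher in XX DSD gonads (all genes tested: 23.1% and 19.2%), with a median of -2.39. *STAR*, which moves cholesterol into mitochondria and so starts steroid synthesis, had 96 FPKM at the lowest, 184 at the median and 546 at the highest in XX gonads, and 2290, 3380 and 3920 in the XY gonads. *CYP17A1*, the enzyme that commits steroids to androgens, had 220, 388 and 1180 in XX gonads and 4590, 4170 and 3470 in XY gonads. All XX gonads lay under all XY gonads for both genes, with differences of -3.99 (SE 0.57, adjusted p = 0.0004) and -3.24 (SE 0.5, adjusted p = 0.00066).

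Within the XX group these values followed litter and labelled age. The summed FPKM of the 10 steroidogenic loci was 2450 in C3694 and 1520 in C3696 (d41), 1080 in C3517 (d42), 534 in C3684 and 505 in C3688 (d43) and 576 in C3659 (d44). XY littermates had 9260 at d41 and 9590 and 8480 at d42, and XX controls of d44 had 495 to 720. The 3 XX embryos of d43 and d44 were thus at the level of XX controls, and the 3 of d41 and d42 above it. Each age holds only 1 litter, so age and litter cannot be told apart.

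*SCARB1*, the receptor that takes up cholesterol from lipoproteins, was 190 and 106 in litter A, 80.2 in C3517 and 47.8 to 55.8 in the others, against 393 to 650 in XY gonads (-2.71, adjusted p = 0.00056). *FDX1*, the electron carrier of mitochondrial cytochromes, went from 269 in C3694 to 50.3 in C3688, against 1120, 983 and 337 in XY gonads, and *CYP11A1*, which cleaves the cholesterol side chain, from 199 to 38.8 against 445, 343 and 171. *CYP11A1* was therefore the 1 gene of this set whose sexes overlapped (-2.06, SE 0.53, adjusted p = 0.011, 0.092 among d41 and d42 embryos and 0.05 without the XY embryo C3691), with C3694 above the XY embryo C3522. *LHCGR*, the receptor of luteinizing hormone, was 8.56 ± 2.23 and 30.1 ± 4.48 (-1.72, adjusted p = 7.1e-05).

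*MC2R*, the ACTH receptor, which is on this list and also marks adrenal cortex, was 0.171 to 1.2 FPKM in XX and 2.31 to 3.78 in XY gonads (-1.36, adjusted p = 0.00079), with its highest XX value in C3694. The summed level of the 7 adrenal list loci was 24.7 to 39.9 FPKM in XX and 38.9 to 48.5 in XY gonads, and 5 of the 7 stayed below 1 FPKM in both sexes, 1 of them at 0 throughout. Only *MC2R* and *CHGA* were tested, so most of this sum is *CHGA* and it is no measure of the list. The part of adrenal tissue in the steroidogenic values was not tested.

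**Figure D2:**
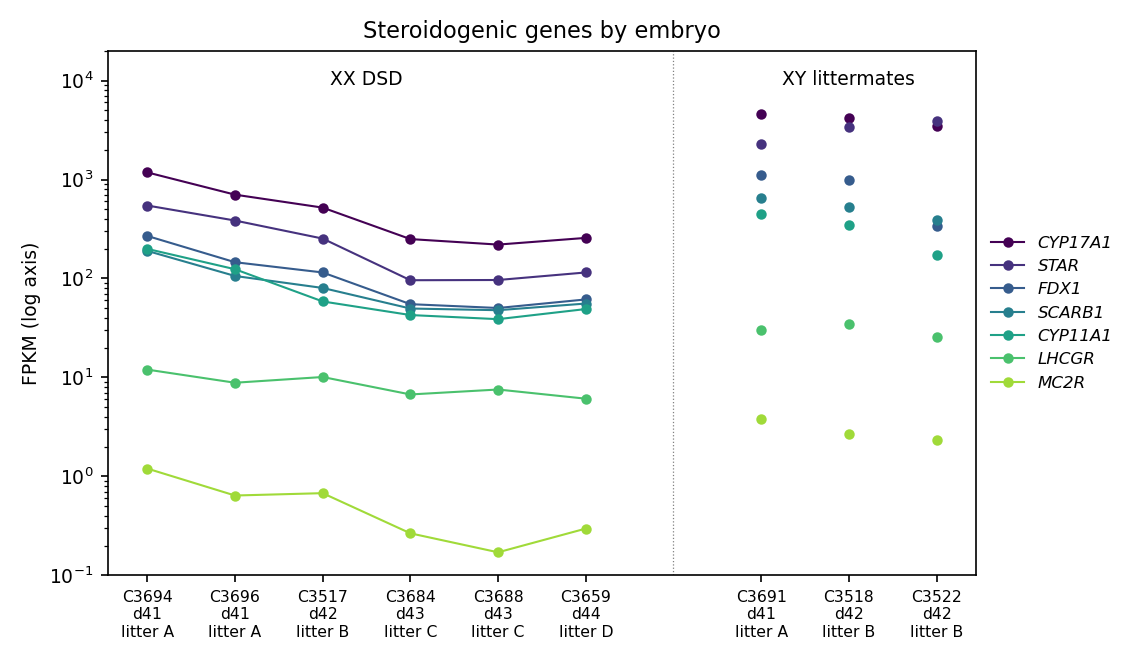
FPKM on a log axis (vertical) of 7 steroidogenic genes in each XX DSD embryo, ordered by labelled age, and in the 3 XY littermates (horizontal axis, with litter), 1 colour per gene. *STAR* goes from 546 in C3694 to 96 in C3684 among XX gonads and is 2290 to 3920 in XY gonads.

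*HSD17B3*, the testis enzyme that makes testosterone, did not follow that order. It was 0.726 FPKM in C3694 and 0.105 to 0.197 in the other 5 XX gonads, against 35.9, 34.3 and 66.3 in XY gonads (-5.17, SE 0.22, adjusted p = 1.9e-07).

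Hedgehog signals from Sertoli cells to Leydig precursors through the receptor PTCH1, which is also a target of the pathway. *PTCH1* was 6.51 to 8.09 in XX and 20.1 to 24.4 FPKM in XY gonads, without overlap (-1.42, SE 0.09, adjusted p = 1.9e-06). *GLI1*, another target, was 2.79 ± 0.462 and 5.87 ± 0.801 (-0.86, adjusted p = 0.00035). The repressor *GLI3* was higher in XX gonads (5.33 ± 0.477 against 2.71 ± 0.303, adjusted p = 0.00011), *GLI2* was 4.59 and 4.12 (adjusted p = 0.31), and the ligand gene *DHH* shares a locus with *LMBR1L* and has no value of its own. In all, 3 of 8 tested members were higher in XY and 2 in XX gonads (all genes tested: 23.1% and 19.2%).

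Activin and BMP genes were divided by subunit and receptor. Of 13 tested, 4 were higher in XX and 5 in XY gonads (all genes tested: 19.2% and 23.1%). *INHBA*, the beta-A subunit, was 6.63 ± 1.34 in XX and 25.4 ± 6.52 in XY gonads (-1.78, adjusted p = 3.6e-05), in the direction of *INHA* and *INHBB*. The activin antagonist *FSTL3* has no locus of its own here. The receptor *BMPR1B* was 4.46 ± 0.696 and 0.64 ± 0.179 (1.73, SE 0.13, adjusted p = 6.7e-06). *AMHR2*, the receptor of AMH, was higher in XX gonads at 24.9 to 31.2 FPKM against 16.4 to 22.3 (0.54, adjusted p = 0.0017). The hormone and its receptor thus differed in opposite directions.

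Retinoic acid genes were split as well, with 5 of 11 tested higher in XX and 4 higher in XY gonads (all genes tested: 19.2% and 23.1%). *CYP26B1*, which degrades retinoic acid in the testis, was 3.24 ± 0.453 in XX and 11.4 ± 2.61 in XY gonads (-1.54, adjusted p = 2.9e-05). Of the enzymes that make it, *ALDH1A1* was 266 ± 26.6 and 71.6 ± 13.3 (1.89, SE 0.12, adjusted p = 2.4e-06), whereas *ALDH1A2* was 75.8 ± 4.51 and 150 ± 31.8 (-0.96, adjusted p = 0.00012). *CRABP2*, a carrier of retinoic acid, was 118 and 64.7 FPKM (adjusted p = 8e-06).

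Testis cords are wrapped in a basement membrane. *LAMA1*, a laminin chain, was 36 ± 3.79 in XX and 88.7 ± 3.48 in XY gonads (-1.28, SE 0.09, adjusted p = 4.8e-06), and *NID1* 21.4 ± 1.85 and 43.8 ± 6.12 (-0.99, adjusted p = 3.7e-05). *NID2*, its paralog, went the other way with 72.4 ± 5.05 and 41.1 ± 3.84 (0.8, adjusted p = 3.8e-05). *COL18A1* was 14.8 to 31.1 and 39 to 76.4 FPKM (-1.28, adjusted p = 0.003, and 0.075 with litter as a fixed block in d41 and d42 embryos). Over the list, 6 of 13 tested were higher in XY and 3 in XX gonads (all genes tested: 23.1% and 19.2%), with a median of 0.

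Markers of other cells of the gonad were measured in the same libraries. Germ cell genes were low: *NANOG* was at 0 in all 9 libraries, *DDX4* was 0.193 and 0.149 FPKM, and 7 of 12 loci of the list stayed below 1 FPKM. *KIT*, a receptor of germ cells and other lineages, was 7.64 ± 1.92 in XX and 28.1 ± 2.51 in XY gonads (-1.78, adjusted p = 5.5e-05), and *MAEL*, a piRNA pathway gene, 4.17 ± 1.31 and 0.93 ± 0.207 (1.39, adjusted p = 0.00039). *LIN28A* spread from 0.802 to 10.5 among XX gonads and overlapped (adjusted p = 0.38). Of the meiosis genes 3 of 10 loci were tested and *MEIOB* was higher in XX (3.51 ± 0.783 against 1.34 ± 0.175, adjusted p = 0.00071).

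Endothelial genes were higher in XY in 4 and in XX in 2 of 11 tested (all genes tested: 23.1% and 19.2%), with a median of -0.12. *TEK*, the angiopoietin receptor, was 40.4 ± 1.71 in XX and 22 ± 0.947 in XY gonads (0.85, SE 0.06, adjusted p = 3.3e-06). *FLT1*, a VEGF receptor, was 3.44 ± 0.293 and 8.26 ± 1.66 (-1.05, adjusted p = 5.4e-05) and *PECAM1* 24.7 ± 1.79 and 39.1 ± 4.2 (-0.64, adjusted p = 0.00025), while *KDR* overlapped (adjusted p = 0.13).

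Interstitial genes were higher in XX in 3 and in XY in 4 of 13 tested (all genes tested: 19.2% and 23.1%). *PDGFRB*, a receptor of perivascular and stromal cells, was 22.4 ± 3.28 and 42 ± 6.09 (-0.88, adjusted p = 0.00039) and *MYH11*, a smooth muscle myosin, 9.65 ± 0.617 and 4.62 ± 0.869 (0.93, adjusted p = 6.7e-05).

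Macrophage genes were higher in XY gonads in 2 of 9 tested and in XX gonads in none (all genes tested: 23.1% and 19.2%). The XY count was thus near the share of all genes. *PTPRC*, the pan-leukocyte antigen, was 2.87 ± 0.841 and 5.77 ± 0.665 (-0.83, adjusted p = 0.0031) and *CX3CR1*, a chemokine receptor, 3.3 ± 1.01 and 5.4 ± 0.29 (-0.6, adjusted p = 0.019), with overlap. The summed level of the 10 macrophage loci was 53.6 FPKM in C3694, 22.6 to 36.1 in the other 5 XX gonads and 46.8 to 54.4 in XY gonads. *CSF1R*, the receptor that macrophages need to survive, was past the threshold only when C3694 or the whole of litter A was left out (adjusted p = 0.15 with all libraries, 0.0087 and 0.014 without them).

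The remaining lists were short, and their counts stand beside 19.2% higher in XX and 23.1% higher in XY over all genes tested. FGF signalling genes were higher in XX in 3 and in XY in 2 of 10 tested, prostaglandin genes 1 and 1 of 5, surface epithelium genes 2 and 0 of 4, erythroid genes 0 and 1 of 5, mesonephros and kidney genes 2 and 1 of 4, and none of the 3 male germ cell loci was tested.

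Dividing-cell genes were higher in XX DSD gonads in 11 of 12 tested and in XY gonads in none (all genes tested: 19.2% and 23.1%), with a median of 0.53. *AURKB*, a mitotic kinase, was 16.4 ± 1.41 and 7.87 ± 1.89 (0.99, SE 0.13, adjusted p = 0.0002), *MCM3*, part of the replicative helicase, 49.9 ± 3.43 and 32.4 ± 2.32 (0.61, adjusted p = 0.00015). The number of dividing-cell genes higher in XX was 9 with litter A left out. It fell to 7 in embryos of d41 and d42 and to 5 with litter as a fixed block there. The share of all genes under these settings is not given, so these counts have no background beside them. Immediate early genes, which dissection and handling can induce, were higher in XY gonads in 4 of 8 tested (all genes tested: 23.1%), among them *JUN* (32.2 ± 4.75 against 74.8 ± 13.1, -1.19, adjusted p = 9e-05) and *ATF3* (2.03 against 4.26, adjusted p = 0.0019). Their part in other results was not tested.

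**Figure D3:**
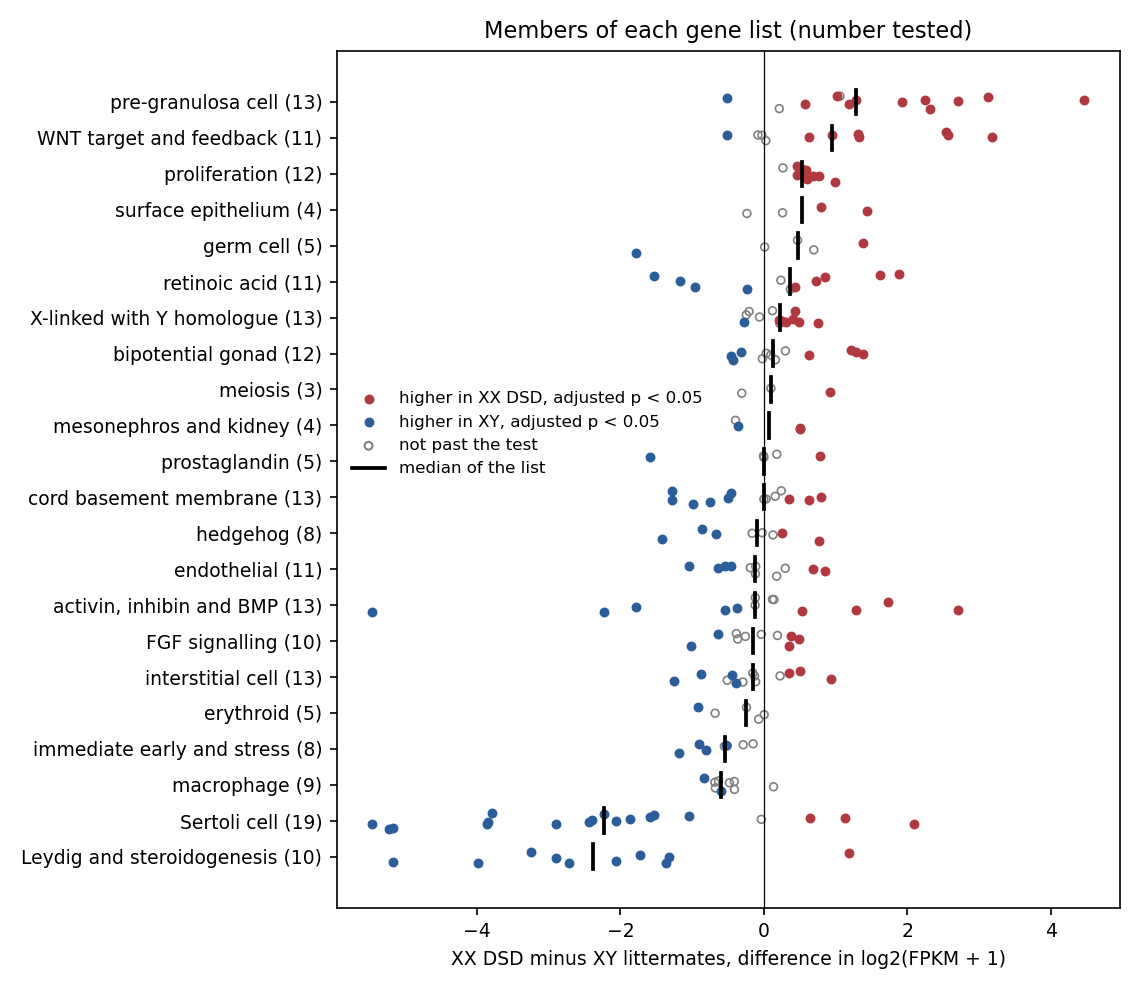
Difference in log2(FPKM + 1), XX DSD minus XY littermates (horizontal axis), of each tested member of the gene lists with at least 3 tested members (vertical axis, number in brackets), with the median as a black bar. The Leydig and Sertoli lists have medians of -2.39 and -2.23 and the pre-granulosa list 1.28, and filled points passed an adjusted p of 0.05. The locus named *TMSB4X* is left out of the X-linked list.

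The genes with the largest ratio of means in XY gonads were mostly off in XX gonads. *VSIG1*, an X-linked junction protein gene, was 0.137 ± 0.114 and 60.4 ± 14.8 FPKM, 442-fold apart (adjusted p = 1.5e-08). *SERPINA5*, the protein C inhibitor of the male tract, was 0.462 ± 0.169 and 159 ± 34.2 (345-fold, adjusted p = 3.1e-09) and *SCRG1* 1.33 ± 0.849 and 353 ± 81.5 (265-fold). *COL9A1*, a collagen chain, was 0.706 ± 0.192 and 88.5 ± 12.1 (125-fold), *GATM*, an enzyme of creatine synthesis, 5.24 ± 3.22 and 519 ± 47.7 (99-fold) and *CIDEA*, a lipid droplet protein, 0.244 ± 0.103 and 20.6 ± 3.32 (84.6-fold). The others by this rule were *HSD17B3*, *SOX10*, *SMPX* (X-linked, 165-fold), *CKPI* (144-fold) and, listed at 0 in all XX gonads, a U1 small nuclear RNA locus and the locus named *TMSB4X*.

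In the other direction the inactive X transcript came first. The locus *Xist_exon4* was 38.9 to 172 FPKM in XX and 0.0544 to 0.163 in XY gonads (6.3, SE 0.43, adjusted p = 3.6e-06), which matches the sex labels in every library. Next to *FOXL2*, *IRX5* and *SP5* were *GABRA2*, a GABA receptor subunit (58.2 ± 7.5 against 1.01 ± 0.321, 57.9-fold, adjusted p = 1.7e-08), *NTM*, a neural adhesion protein (53.1-fold), and *PPAPDC1A*, a lipid phosphatase (63.6 ± 8.89 against 1.47 ± 0.343, 43.1-fold). *AQP3*, a water and glycerol channel, followed at 38.7-fold, *CBLN2*, a secreted synapse organiser, at 33.4-fold (156 ± 28.5 against 4.67 ± 2.23), and *SALL1*, *TMEM132C* and *CADPS* at 30.7-fold, 30.6-fold and 27.5-fold. The rule took only genes whose XX and XY libraries did not overlap, so the separation of the sexes in these genes is set by the rule.

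By chromosome, genes higher in XY by all criteria were 46 of 478 tested on the X (9.62%) and 593 of 11632 on autosomes (5.1%, and 2.54% to 12.5% on single autosomes), and genes higher in XX 16 (3.35%) and 345 (2.97%). The share of genes higher in XY was thus larger on the X than on autosomes together. Among single autosomes only CFA36 had a larger share (13 of 104 tested, 12.5%). Whether the X differs from autosomes was not tested. The X-linked *SMARCA1*, a chromatin remodeller, was 62.5 ± 1.17 and 134 ± 3.3 (-1.09, adjusted p = 2.5e-07), and *FHL1* and *LDOC1* were higher in XX gonads (28.9 against 7.89 and 247 against 64 FPKM). Of the genes listed as X-linked with a Y homologue 7 of 14 tested were higher in XX gonads and 2 higher in XY gonads (all genes tested: 19.2% and 23.1%). The 14 include the locus named *TMSB4X*, which does not lie on the X. *EIF1AX*, a translation factor, was 69.4 ± 3.29 and 40.6 ± 2.9 (0.76, SE 0.07, adjusted p = 1.6e-05) and *KDM6A*, a histone demethylase that escapes X inactivation, 8.93 ± 0.212 and 6.09 ± 0.269 (0.49, adjusted p = 9e-05), while *KDM5C* overlapped (adjusted p = 0.36). *OFD1* (adjusted p = 0.021, and 0.076 with litter A left out) and the locus named *TMSB4X* were higher in XY gonads. That locus is a single exon of the assembly on CFA26 (28255924-28256049) and not on the X, and had 486, 550 and 380 FPKM in XY gonads against 0 in all XX gonads, XX controls included (XY controls 552).

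Loci without any gene name were fitted with the rest of the discovery table. Of 6751 tested, 236 (3.5%) passed all criteria, and 90 (1.33%) were higher in XX DSD gonads and 146 (2.16%) higher in XY littermates. The total was 162 to 178, with 50% to 52.8% higher in XX, when any 1 XX gonad was left out, and 138 among embryos of d41 and d42. The XY set was made up largely of short single exons: 87 of 146 were under 300 bp and 63 were at 0 in all XX gonads, each of these under 300 bp. In the XX set 19 of 90 were under 300 bp and 55 had 2 or more exons, against 50 in the XY set. The largest ratios by rule were against 0 in both directions. Of these, *XLOC_011089*, *XLOC_016863*, *XLOC_045737* and *XLOC_035903*, higher in XY, overlapped between the sexes. Each was thus at 0 in at least 1 XY gonad as well. *XLOC_048826*, *XLOC_040570* and *XLOC_028335*, higher in XX, overlapped too. The sexes were separate in *XLOC_026338*, *XLOC_013631* and *XLOC_030908*. *XLOC_026338* (3 exons, within CDH4 on CFA24) had 16.6 to 41.6 FPKM in XX gonads and 0 in all XY gonads.

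Longer loci were picked after their values were seen. *XLOC_025118* (CFA23:35141639-35149656) spans *FOXL2* on the other strand and had 20.5 to 30.7 FPKM in XX and 0.169 to 0.236 in XY gonads (4.46, adjusted p = 4.7e-08). *XLOC_056287* (CFAX:57322794-57330192) lies opposite *Xist_exon4* and had 23.9 to 32.5 in XX and at most 0.0973 in XY gonads. On CFA20, *XLOC_021276*, *XLOC_021275* and *XLOC_021274* (56782444 to 56789076) lie opposite a locus that holds *SF3A2* and had 978, 414 and 231 FPKM in XY against 0.582, 0.891 and 0.587 in XX gonads. The library kit does not mark strand, so reads of these loci and of the gene on the other strand cannot be told apart. The study places *AMH*, which was read here from the annotated table only, in the region of CFA20 that contains these CFA20 loci. Whether they hold reads of *AMH* was not tested. *XLOC_017801* (CFA19:39147483-39162046, 3 exons) has no named locus within 269429 bp and had 12.8 to 27.1 in XX gonads and 0, 0.127 and 0 in XY gonads (4.3, adjusted p = 2.2e-06).

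The same contrast in XX and XY controls of d44 (3 of each, which share no library with the pedigree) had 557 (4.56%) and 685 (5.61%) of 12221 genes by all criteria. Of those tested in both, 300 of 554 genes higher in XX controls were called here (54.2%, and 83.1% of those called here), and 493 of 683 higher in XY controls (72.2%, and 77.3%). No gene called in controls passed an adjusted p of 0.05 in the opposite direction here. Over the genes called in the controls the median difference was 1.37 in controls and 1.05 in the pedigree for the XX set, and -1.44 and -1.32 for the XY set. The control genes were chosen for a large difference in the controls, which by itself can make the control median the larger. Its part in these gaps was not tested.

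A test of the difference between both contrasts called 60 of 12616 genes (0.476%, with 2153 or 17.1% at an unadjusted p under 0.05). In 39 of them the XX minus XY difference was lower in the pedigree and in 21 higher. With libraries rescaled to the same median the split was even, at 19 lower and 19 higher. The lower side was the larger under the other alternatives. *GPR37*, a neuronal receptor, had 6.35 in XX and 9.42 in XY gonads of the pedigree and 16.6 and 8.89 in controls (-1.35, SE 0.17, adjusted p = 0.0053). Of the genes named from this test, *GPR37* and *FGFR3*, a fibroblast growth factor receptor (-0.93, adjusted p = 0.014), passed in all 14 alternatives run. *GRIK5* and *RASD1* also had a lower XX minus XY difference in the pedigree (1.11 and 1.2 on the log2 scale, against 2 and 2.58 in controls). With litter A left out *GRIK5* had -0.96 (adjusted p = 0.052) and *RASD1* -1.23 (0.054), and *RASD1* had 0.057 with a pseudocount of 0.1.

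*FOXL2* was 24.7 FPKM in XX DSD gonads and 48.5 in XX controls, with means of at most 0.211 in both XY groups. Its difference of differences (-0.89, SE 0.17, adjusted p = 0.039) passed in only 4 of the 14 alternatives, with adjusted p from 0.02 to 0.63, and was again -0.89 with litter A left out (adjusted p = 0.12). *IRX5* was 4.18 FPKM in XX DSD gonads and 17.3 in XX controls (-1.69, adjusted p = 0.031) and passed in 11 of 14, with adjusted p from 0.0032 to 0.25.

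On the other side, *DLK1*, a Notch ligand homologue of fetal interstitial cells, was 0.381 ± 0.151 in XX and 12.2 ± 2.57 in XY gonads of the pedigree and 0.309 and 36.8 in controls (1.6, adjusted p = 0.0053). *DPT*, a matrix protein, was 8.72 and 7.2 in the pedigree and 5.35 and 22 in controls (2.04, adjusted p = 0.014), and *DDAH1* 10.1 and 3.45 against 4.93 and 5.26 (1.39, adjusted p = 0.014). Pedigree, age, litter, depth (0.616 to 0.847 in XX controls and 0.401 to 0.59 in XY controls) and sequencing pool differ together in this test and cannot be told apart. The count was 22 to 129 when single libraries of the pedigree were left out, with 22 without the XX embryo C3659, 27 to 33 without C3684, C3517 or C3696, 33 and 37 without the XY embryos C3522 and C3691, and 129 without the XY embryo C3518. It was 9 when all of litter A was left out, so the number of calls changes with single libraries and with that litter, whose removal also leaves fewer embryos. With litter A left out the differences of differences were 2.18 for *DPT* (adjusted p = 0.052), 1.33 for *DDAH1* (0.053) and 1.47 for *DLK1* (0.034), and *DLK1* had 0.083 with a pseudocount of 0.1.

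**Figure D4:**
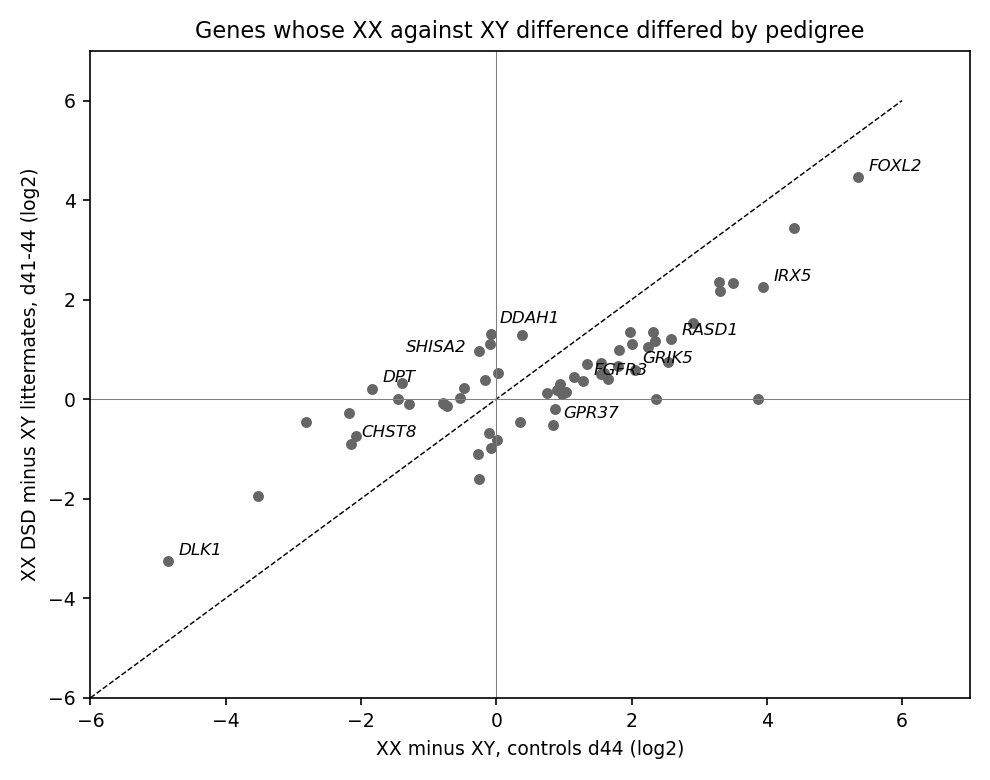
XX minus XY difference on the log2 scale in controls of d44 (horizontal axis) and in the pedigree at d41-44 (vertical axis) for the 60 genes whose differences differed (adjusted p under 0.05), with a dashed line of equality. Points under the line have a lower XX minus XY difference in the pedigree, such as *FOXL2* at 5.35 and 4.47.

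Against the younger gonads of the pedigree (d37-39) the sex difference of 1 gene differed, a U1 small nuclear RNA locus, of 12521 tested (0.00799%, with 767 or 6.13% at an unadjusted p under 0.05). Its adjusted p was 0.027. No gene passed when any 1 of the 6 XX gonads was left out, 1 to 3 passed when an XY gonad was left out and 2 with litter A left out. The next lowest p were those of *ITGBL1* (-1.24, adjusted p = 0.27), which was 0.281 in XX and 4.9 FPKM in XY gonads here and 0.246 and 1.49 at d37-39, and of *CPNE4* and *ADAMTS19* (1.41 and 1.03, both adjusted p = 0.27).

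Among the 6 XX DSD gonads, C3694 was nearest to the XY gonads. Of 685 genes higher in XY controls of d44, a set chosen without any of these 6 libraries, C3694 had the highest value of the 6 in 367 (53.6%), against 35 to 89 (5.11% to 13%) for each of the other 5. Of 557 genes higher in XX controls it had the lowest value in 208 (37.3%), followed by C3659 with 125 (22.4%). Its median log2(FPKM + 1) was 2.822 over the XY genes (2.451 to 2.619 in the other 5, 4.077 to 4.18 in XY littermates) and 3.198 over the XX genes (3.289 to 3.442, and 2.098 to 2.263). C3694 thus lay at the XY side of the XX group and still far from the XY littermates.

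*SOX9* did not follow this order: C3694 had 3.41 FPKM, the second lowest of the 6, and C3659, with 4.28, the highest. Its litter mate C3696 had 3.27 FPKM of *SOX9* and medians of 2.601 over the XY genes and 3.35 over the XX genes. C3694 did have the highest *INHBB* (3.45, against 1.55 to 1.96), *PTGDS* (762), *INHA* (106, against 48.9 to 79.9) and *CLDN11* (5.79, against 0.736 to 2.5). The steroidogenic, interstitial and macrophage lists were at their highest XX level in C3694 too (summed FPKM 2450, 3290 and 53.6), and its relative depth was 0.275. Their part in the position of C3694 was not tested. Without C3694 the counts by all criteria were 1057 in the discovery table and 1210 in the annotated table, against 1000 and 1148 with all libraries, and 1075 and 1232 with the whole of litter A left out.

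**Figure D5:**
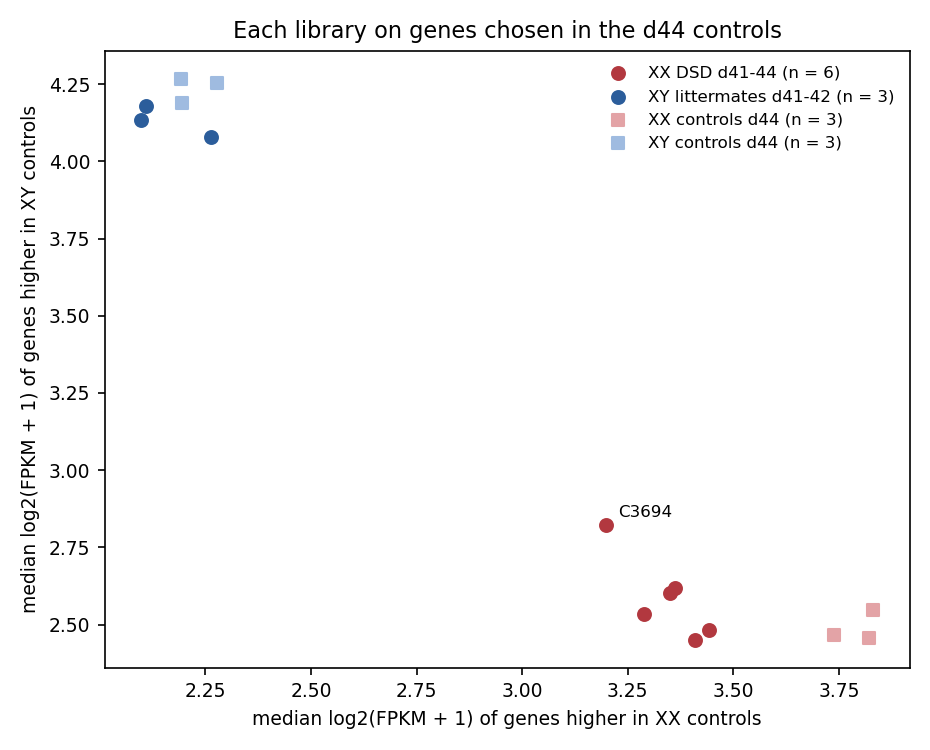
Median log2(FPKM + 1) in each library over the 557 genes higher in XX controls (horizontal axis) and the 685 higher in XY controls (vertical axis) of d44. The genes were chosen in the control libraries (squares). C3694 is at 3.198 and 2.822, at the XY side of the other 5 XX DSD gonads (circles).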

How the data were processed

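RNA of each gonad pair was made into a polyA+ library with an unstranded kit and sequenced as single-end reads. The authors trimmed the reads (cutadapt, 1.5 per the submitters' processing notes), mapped them to CanFam3 (TopHat2 2.0.13) and deposited FPKM values from Cufflinks 2.2.1, with 1 table for annotated genes and 1 for loci of a transcript discovery assembly. Read counts per library were not used here, so depth is relative, from the smallest steps of low FPKM values (up to 0.15 FPKM).

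Groups follow the labels. A few genes that the naming rule would give are not reported here. Of 58781 discovery loci, 22596 hold 1 gene name and 35212 none. Differences are XX minus XY on log2(FPKM + 1), fitted with limma 3.58.1 in R 4.3.3 (moderated test with a mean-variance trend) where a group mean reached 1 FPKM, with Benjamini-Hochberg adjustment over all features of the fit. Fitted fold changes understate those of low genes, and ratios of means are given as folds. The script was tested on simulated data. Named genes were the study's ovary, testis and bipotential genes, up to 12 per direction with the largest ratio of means, up to 5 per list with the lowest adjusted p and the most abundant of the lists that define a cell type, up to 6 per direction of each interaction, up to 5 unnamed loci per direction, and X-linked genes with Y homologues. Those with the largest ratio were taken from named genes that passed all criteria and whose XX and XY libraries did not overlap. Members and lists were chosen with earlier results of these data known. Alternatives were other pseudocounts, filters, scaling, litter and age terms and single libraries left out. Leaving out litter A, repeating list counts and single genes of the pedigree test under each alternative, and naming further list members were chosen after seeing the data.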

Additional observations from a re-analysis of the deposited data

Results flagged for a closer look

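Of 157 genes examined for an XX DSD gonad far from the other 5, 13 had a gap to the nearest gonad above Dixon's limit, given as a share of the whole range, which chance passes in about 1 of 20 groups. C3694 was the highest in *INHBB* (0.736 of the range), *HSD17B3* (0.821), *VSIG1* (0.715) and *SERPINA5* (0.644). It was the lowest in *EMX2* (0.776) and *EIF1AX* (0.688). C3659 was the highest in *SMPX* (0.707) and *CKPI* (1, the other 5 gonads being at 0) and the lowest in *CYP19A1* (0.82) and *KDR* (0.66). C3688 was the highest in *NKD1* (0.772), and C3517 the lowest in *TCF3* (0.739) and *CYP26B1* (0.661).

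The XX minus XY difference differed between the pedigree and controls of d44, on the log2 scale and as pedigree minus controls, by -1.35 for *GPR37*, 1.6 for *DLK1*, 2.04 for *DPT*, -0.89 for *GRIK5*, 1.39 for *DDAH1*, -1.38 for *RASD1*, -0.93 for *FGFR3*, 1.21 for *SHISA2*, 1.26 for *CHST8*, -1.69 for *IRX5* and -0.89 for *FOXL2*. Of these, *FOXL2* passed in 4 of 14 alternatives, *IRX5* in 11, *CHST8* and *RASD1* in 12, *DLK1*, *DPT*, *GRIK5*, *DDAH1* and *SHISA2* in 13, and *GPR37* and *FGFR3* in 14. With litter A left out *SHISA2* had 1.09 (adjusted p = 0.071) and *CHST8* 1.3 (0.054, and 0.12 with a pseudocount of 0.1). Between d41-44 and d37-39 of the pedigree it differed by -3.18 for a *U1* small nuclear RNA locus, which was at 0 in the XX gonads of d41-44.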

How the results depend on the processing

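The counts by all criteria stayed within 1.5 times of 1148 (annotated) and 1000 (discovery) under every alternative run. None of 158 named genes reversed. Of these, 16 lost their call among d41 and d42 embryos, 22 with litter as a fixed block there, 6 with 1 mean value per litter and sex, 6 with litter A left out and 1 with day as a covariate. Loci without a name, 236 in all, were 152 with no filter on low values (50.7% higher in XX, against 38.1%), 138 in d41 and d42 embryos (50.7%) and 162 to 223 with single libraries left out. The test of the pedigree against controls, 60 genes, gave 22 with a pseudocount of 0.1, 101 with no filter, 38 with libraries rescaled, 22 to 129 with single libraries left out and 9 with litter A left out. The test of age, 1 gene, gave 0 with a pseudocount of 0.1, 4 with no filter, 0 to 3 with single libraries left out and 2 with litter A left out. The cause of these changes was not tested. The labels give no replicate numbers that pair the sexes, but litters A and B hold both, and the comparison within them, with litter as a fixed block, gave 999 and 891 genes by all criteria. Litter as a random block over all 9 libraries (correlation within litter 0.046 and 0.033) changed no call of a named gene. With 3 XY embryos of 2 litters and no read counts, small differences in low genes could not be detected.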
